A study of Mus musculus with 103 samples.

Results

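Livers collected during the dark phase, when mice are mostly active, were compared between old and young C57BL6/J mice. The comparison held the 52 arrays taken at zeitgeber time (ZT, hours after lights on) 12, 16 and 20, out of 103 arrays in the series; the other 51 came from the light phase. By their titles 24 of the 52 were old and 28 young, and both diets were joined with diet and time as covariates. The series asked how age and calorie restriction shape daily gene expression in the liver. Livers were taken every 4 h from mice under a cycle of 12 h of light. ZT12 is thus the time of lights off, counted here with the dark phase, and ZT0 that of lights on, counted with the light phase. The labels give 25 weeks on the assigned diet for all samples, and neither the degree of restriction nor the hours of feeding were given in the labels.

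The old mice on the normal diet gave 11 arrays (4, 4 and 3 at ZT12, ZT16 and ZT20) at a labelled age of 85 to 93 weeks, median 89. The old calorie-restricted mice gave 13 arrays (5, 4 and 4) at 83 to 92 weeks, median 89. The young mice on the normal diet gave 12 arrays, 4 at each time, at 48 to 57 weeks, median 52. The young restricted mice gave 16 arrays (6, 5 and 5) at a median of 51.5 weeks. They ran from 48 to 55 weeks except for ZT16 replicate 5, which was labelled 88 weeks and was kept in the young group of its title. The young animals were thus mature adults rather than juveniles. Of 90 pairs of replicates within a dark-phase group, 83 differed in labelled sex or age and so came from different animals by their labels, while for the other 7 the labels do not tell. In the light phase the old groups were labelled 83 to 97 weeks and the young groups 47 to 57 weeks, except young normal-diet ZT4 replicate 4. That array was labelled 23 weeks, less than its 25 weeks of diet, and was kept in the group of its title.

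The deposited values were log2 intensities after robust multi-array averaging (RMA), and the dark-phase arrays had medians of 5.1 to 5.2. Pairs of dark-phase arrays correlated at 0.944 to 0.995 and no pair held identical values. The number of arrays limited the precision. Sex-linked transcripts did not follow the labelled sex. Xist, which silences an X chromosome in females, had a median of 4.58 in 27 arrays labelled female and 4.36 in 25 labelled male. The Y-linked Eif2s3y had medians of 9.33 and 9.2, and its lowest value in an array labelled female was 8.64. The Y-linked Kdm5d had medians of 6.93 and 6.91. Values given below by labelled sex may therefore not separate the sexes. In 4 young normal-diet arrays (ZT12 replicates 1 and 2, ZT20 replicates 3 and 4) one of Xist, Eif2s3y or the Y-linked Kdm5d lay over 5 robust SDs from the other arrays. Without those 4 arrays 203 genes passed the threshold, against 175 with them, and 136 genes passed in both. Among genes named below, S100a9, Lepr and Ndufc2 missed the threshold without the 4 arrays. Old normal-diet ZT16 replicate 2 stood apart in immune transcripts, and the named calls that were lost without it are given as such beside each gene. Hepatocyte markers were high on all 52 arrays, with a mean level over the 12 tested markers of 10.94 to 11.48, and genes of the pancreas and fat averaged 4.77 to 5.09.

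In mice that feed freely, the liver receives most of its food-derived substrate during the dark phase. Glycolytic and lipid-building enzymes are then normally high and fasting programmes low. The feeding hours of the restricted mice were not given, so this may not hold for them. It may not hold for the arrays at ZT12 either, which were taken as the dark phase began. A molecular clock of transcriptional activators and their own repressors runs in hepatocytes and times many of these enzymes. Ageing of the liver is known for a slow gain of immune cells and inflammatory transcripts and for a loss of male-typical expression that depends on pulses of growth hormone.

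Age changed few transcripts by much in the dark. Of 11675 genes tested, 175 passed an adjusted p of 0.05 (1.5%), of which 72 were higher in old mice (0.617%) and 103 were lower (0.882%). Before adjustment 2197 genes (18.8%) had a limma p under 0.05, in either direction. Counts at an unadjusted p in the lists below are to be read against that share. Counts of members that passed are to be read against 1.5%, or against 0.617% and 0.882% for rises and falls. In a list of few tested members, 1 call or none says little about the list as a whole. The one change of over 2-fold was a fall of Cd163, a macrophage receptor, and 9 genes changed over 1.5-fold. Immune and secreted proteins stood among the largest rises, together with Csad, an enzyme of taurine synthesis. Besides Cd163, the largest falls included a sulfotransferase, the NADPH-producing malic enzyme Me1 and the leptin receptor. Of the 175 genes, 142 had the same sign in all 6 combinations of diet and time and 32 in 5 of 6. Of all 11675 genes, 1185 had 1 sign in 6 of 6. The 175 genes were called on the same arrays, so a kept sign is largely built in for them. Whether signs were kept beyond that selection was not tested. The median difference over all genes was -0.00 on the log2 scale, and 90% of genes lay between -0.14 and 0.15. The count was 111 without old normal-diet ZT16 replicate 2 and 35 without the 3 arrays highest in neutrophil markers (that array, old normal-diet ZT20 replicate 3 and old normal-diet ZT12 replicate 4). Leaving out these 3, all from old mice, was not planned in advance. Of the 24 genes with the largest changes, 20 passed without the first and 12 without all 3. Those 12 were Csad, Ctsc, Apcs, Dnase2a, Sybu and Gpx3 among the rises and Cd163, Hectd2, Ociad2, Sult2a8, Lepr and Hnmt among the falls.

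**Figure D1:**
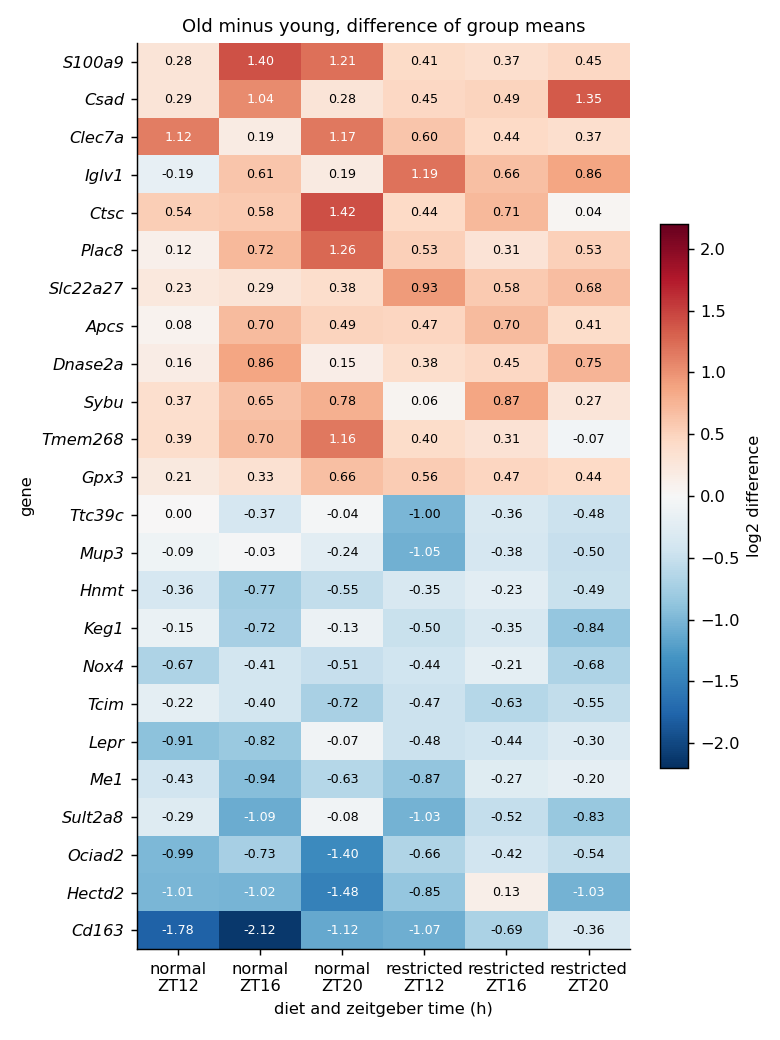
Log2 difference of means, old minus young, for the 12 largest rises and 12 largest falls (rows) in each diet at ZT12, ZT16 and ZT20 (columns, zeitgeber time in h). Rows were chosen from the called genes partly by their sign in these columns, so shared signs are largely built in. Colour and printed numbers both give the difference; Cd163 is negative in all 6 columns, from -2.12 to -0.36.

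Cd163, the receptor by which tissue macrophages take up haemoglobin bound to haptoglobin, had the largest difference of any gene that passed. Its log2 level in the 24 old arrays ran from 4.49 through a median of 6.23 to 8.50, and in the 28 young arrays from 6.14 through 7.60 to 8.84. The groups overlapped, but 12 old arrays lay below the lowest young array and 3 above the young median. Cd163 fell by 1.17 on the log2 scale (SE 0.20, adjusted p = 0.00161). On the normal diet the difference was -1.72 and under restriction -0.73. At ZT16 on the normal diet the 4 old arrays lay at 5.17 to 5.50 and the 4 young arrays at 6.64 to 8.66, with no overlap. The 5 old restricted arrays at ZT12 were widely spread, at 5.11, 5.45, 6.81, 8.00 and 8.50. Cd163 passed in each of the 52 fits that left out 1 array, with differences from -1.26 to -1.10, and without the 3 arrays highest in neutrophil markers it differed by -1.13 (adjusted p = 0.00824). On the restricted diet alone it missed the threshold (adjusted p = 0.179).

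Most other macrophage transcripts had higher means in old mice, unlike Cd163. Of 23 Kupffer cell and macrophage markers tested, 2 rose and 1 fell (13%, against 1.5% of all genes), and 20 had a higher mean in old mice. Their median log2 difference was 0.23, against -0.00 over all genes. In arrays labelled female it was 0.05 and in those labelled male 0.56, a difference that was not tested. Clec7a, the receptor dectin-1 that recognises fungal glucans, ran from 5.16 through 6.35 to 8.83 in old and from 4.68 through 5.78 to 8.51 in young mice. The groups overlapped almost wholly, with 17 of 24 old arrays above the young median. Clec7a rose by 0.63 (SE 0.16, adjusted p = 0.0359). Gpnmb, a glycoprotein of lipid-laden macrophages, rose by 0.32 (SE 0.08, adjusted p = 0.0258), and 22 of 24 old arrays lay above the young median. Kupffer cell transcripts that did not pass had differences of 0.15 for Clec4f, 0.19 for Vsig4, 0.18 for Adgre1 and -0.08 for Timd4, genes singled out after their values were seen. Clec7a kept its call in 40 of the 52 fits that left out 1 array (highest adjusted p 0.0646, without old normal-diet ZT20 replicate 3), and differed by 0.58 without old normal-diet ZT16 replicate 2 (adjusted p = 0.0578). Its difference was 0.25 in arrays labelled female (adjusted p = 0.789) and 1.07 in those labelled male (adjusted p = 0.0408). With the 3 neutrophil-high arrays left out no macrophage marker remained past the threshold in the upward direction and the median was 0.11. In whole liver, fewer cells of a type and less RNA per cell cannot be told apart.

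Neutrophil transcripts had higher means in old mice, and a few old arrays had the highest levels. S100a9, a calcium-binding protein that neutrophils carry in bulk, ran from 5.90 through 6.57 to 10.26 in old and from 5.44 through 6.10 to 6.96 in young mice. The highest value was old normal-diet ZT16 replicate 2, and 21 of 24 old arrays lay above the young median. S100a9 rose by 0.65 (SE 0.17, adjusted p = 0.0433), and the difference was 0.96 on the normal diet and 0.41 under restriction. It passed in 29 of the 52 fits that left out 1 array (highest adjusted p 0.0776, without old normal-diet ZT20 replicate 3) and differed by 0.38 without the 3 arrays highest in neutrophil markers (adjusted p = 0.0622). Of 14 neutrophil markers listed, 6 were bright enough to test and 1, S100a9, passed (16.7%, against 1.5% of all genes). All 6 had a higher mean in old mice and their median was 0.51, with 0.80 on the normal diet, 0.21 under restriction, 0.25 without the 3 arrays, and 0.34 and 0.80 in arrays labelled female and male. Lcn2, lipocalin-2, a granule protein that hepatocytes also make, had the largest difference of them (0.90, SE 0.26, adjusted p = 0.0577). The mean of the 6 markers ran from 5.55 to 9.60 in old and from 5.28 to 6.61 in young arrays, and its part in the other immune results was not tested. The 3 arrays left out were chosen by this mean, at 9.60, 7.43 and 6.99, and all were old normal-diet arrays. Leaving them out therefore lowers the age difference of these markers by construction.

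Ctsc, the protease cathepsin C that activates granule enzymes of myeloid and cytotoxic cells, ran from 4.51 through 6.09 to 7.31 in old and from 4.37 through 5.51 to 6.38 in young mice. The upper end separated the ages, since 6 old arrays exceeded the highest young array. Ctsc rose by 0.59 (SE 0.12, adjusted p = 0.0101) and differed by 0.475 without the 3 neutrophil-high arrays (adjusted p = 0.0474). Plac8, a small cysteine-rich protein abundant in myeloid and lymphoid cells, rose by 0.55 (SE 0.14, adjusted p = 0.0258). It reached 10.12 in old normal-diet ZT16 replicate 2, against a young maximum of 8.42, and differed by 0.38 without the 3 arrays (adjusted p = 0.0951). Iglv1, an immunoglobulin light chain variable segment of plasma cells, rose by 0.60 (SE 0.16, adjusted p = 0.037), with differences of 0.20 on the normal diet and 0.92 under restriction. Probe sets of such segments can bind related segments, so the gene of origin is uncertain. Iglv1 passed in 40 of 52 fits that left out 1 array and missed the threshold without old normal-diet ZT16 replicate 2 (adjusted p = 0.0597). Among 10 B and plasma cell markers 1 passed, Iglv1 (10%, against 1.5% of all genes), and 9 had higher means. Of 17 T and NK cell markers none passed by limma at the adjusted threshold, while 6 were higher at an unadjusted p under 0.05. The granule protease Gzmb came nearest, with a difference of 0.27 (SE 0.08, adjusted p = 0.0531).

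Interferon-response genes had higher means in old mice as a block, each by a small step that did not pass. All 28 tested members had a positive difference, from 0.05 to 0.46, with a median of 0.21, while 49.3% of all genes had a positive difference. By limma 0 of the 28 passed at the adjusted threshold and 18 had an unadjusted p under 0.05. Zbp1, a sensor of Z-form nucleic acid, had a difference of 0.45 (SE 0.13, adjusted p = 0.0556), and 9 of 24 old arrays exceeded the highest young array. The guanylate-binding protein Gbp2 differed by 0.46 (SE 0.14, adjusted p = 0.0804) and the chemokine Cxcl10 by 0.37 (SE 0.12, adjusted p = 0.0894). The median of the list was 0.31 on the normal diet and 0.14 under restriction, and 0.14 without the 3 neutrophil-high arrays. It was 0.10 in arrays labelled female and 0.32 in those labelled male. MHC class II genes, which present antigen on myeloid and B cells, had the same sign in 9 of 9 members with a median of 0.20. By limma 0 of the 9 passed (2 at an unadjusted p under 0.05, a share near the 18.8% of all genes). Without the 3 arrays that median was 0.09, and it was 0.04 and 0.48 in arrays labelled female and male. Members of both lists share the arrays and many share cell types, so equal signs are not independent observations.

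**Figure D2:**
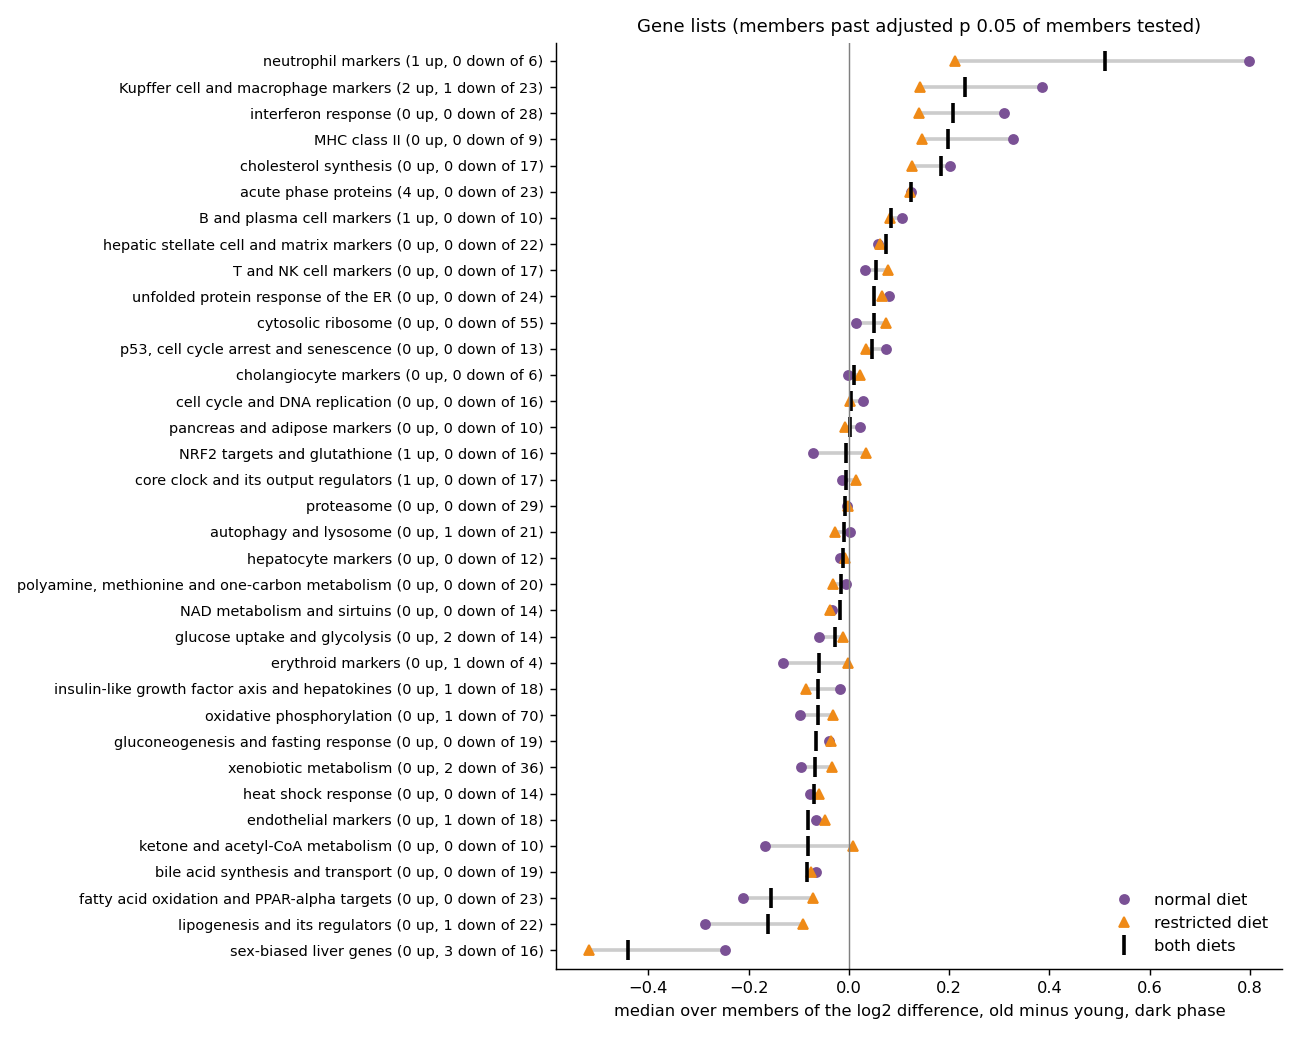
Median over the tested members of each gene list of the log2 difference, old minus young, in the dark phase, on the normal diet (purple circles), under restriction (orange triangles) and with both diets joined (black bars). Counts beside each name give members that passed upward and downward; neutrophil markers sit highest at 0.51 and sex-biased liver genes lowest at -0.44.

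Several plasma proteins that hepatocytes secrete in the acute phase rose in old mice. Of 23 tested, 4 rose (17.4%, against 0.617% of all genes) and none fell. Of the 23, 20 had higher means, and the median difference was 0.12 on either diet. Apcs, serum amyloid P, the pentraxin of mouse that coats amyloid and dying cells, ran from 9.0 through 9.53 to 11.18 in old and from 8.53 through 9.18 to 9.79 in young mice. Old arrays were shifted upward with overlap, 21 of 24 above the young median and 8 above the highest young array. Apcs rose by 0.48 (SE 0.11, adjusted p = 0.0151), and it differed by 0.36 without the 3 neutrophil-high arrays (adjusted p = 0.0383). Itih3 and Itih4, heavy chains of the inter-alpha-trypsin inhibitor that bind hyaluronan, rose by 0.18 (SE 0.04, adjusted p = 0.0127) and 0.09 (SE 0.02, adjusted p = 0.0215). Fgl1, a fibrinogen-like protein secreted by hepatocytes, rose by 0.22 (SE 0.06, adjusted p = 0.0363), and missed the threshold without old normal-diet ZT16 replicate 2 (0.21, adjusted p = 0.0545). Without the 3 arrays 1 of the 4 passed. The list median was then 0.08. Serum amyloid Saa1 had a difference of 0.37 and C-reactive protein Crp of -0.05, both named after their values were seen, and neither passed.

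The promoter of Apcs is printed because it belongs to the acute-phase gene with the largest rise that passed and holds a match to a STAT site, the letters by which cytokine-activated STAT factors are known to bind. Sequences are from RefSeq on GRCm38.p6, 250 bases before to 50 after the transcription start, 5′ to 3′ on the strand of the gene, and capitals mark the match. Apcs lies on the minus strand and its window is chr1:172895005-172895304, with the match starting at position -244.
Apcs: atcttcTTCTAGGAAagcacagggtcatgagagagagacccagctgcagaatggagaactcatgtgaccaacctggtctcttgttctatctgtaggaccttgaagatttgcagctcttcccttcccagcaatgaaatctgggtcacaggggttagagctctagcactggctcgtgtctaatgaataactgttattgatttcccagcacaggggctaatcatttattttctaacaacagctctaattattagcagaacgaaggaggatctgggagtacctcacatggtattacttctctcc
The letters TTCNNNGAA, read on both strands, occur in 8.3% of 32851 promoters of this length. Counted by gene, in any of its promoters, they occur in 8.55% of tested genes with an entry. The share was 9.26% of the 54 genes higher in old mice that have an entry and 10.8% of the 83 lower ones. Of 25 genes looked up by symbol 20 had an entry. A match is a description of the sequence and shows no binding.

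Csad and Dnase2a rose with age, with positive differences on both diets and at each time. Csad, cysteine sulfinic acid decarboxylase, makes the taurine precursor hypotaurine, which the liver uses for bile salts and osmotic balance. Its level ran from 8.81 through 9.89 to 10.49 in old and from 7.69 through 9.19 to 10.43 in young mice. The ranges overlapped, with 23 of 24 old arrays above the young median and 3 of 28 young arrays above the old median. Csad rose by 0.65 (SE 0.12, adjusted p = 0.0039), by 0.39 at ZT12, 0.74 at ZT16 and 0.88 at ZT20. Without the 3 neutrophil-high arrays it differed by 0.64 (adjusted p = 0.0226). Dnase2a, the lysosomal nuclease that digests DNA of engulfed cells, ran from 8.84 through 9.53 to 10.06 in old and from 7.95 through 9.01 to 9.98 in young mice. It rose by 0.46 (SE 0.09, adjusted p = 0.0039), again with 23 of 24 old arrays above the young median. Both genes passed in each of the 52 fits that left out 1 array.

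The remaining large rises belonged to an antioxidant enzyme, a transporter and membrane-associated proteins. Gpx3, the secreted glutathione peroxidase that reduces peroxides in plasma, rose by 0.45 (SE 0.10, adjusted p = 0.0121), and ran from 6.92 through 7.37 to 9.43 in old and from 6.21 through 7.03 to 7.84 in young mice. It was the 1 gene of 16 NRF2 targets and glutathione genes that passed (6.25%, against 1.5% of all genes). The median of that list was -0.01. Slc22a27, of the organic anion transporter family, rose by 0.55 (SE 0.14, adjusted p = 0.0342). It has close paralogs in tandem, so cross-hybridisation is possible. It lost its call without any of old restricted ZT12 replicate 3 (0.51, adjusted p = 0.0527), old restricted ZT16 replicate 3 (0.53, adjusted p = 0.0542), old restricted ZT20 replicate 3 (0.48, adjusted p = 0.0563) or young normal-diet ZT20 replicate 1 (0.53, adjusted p = 0.0505). Sybu, syntabulin, a linker of cargo to kinesin, rose by 0.46 (SE 0.10, adjusted p = 0.0127) with 22 of 24 old arrays above the young median. Tmem268, a membrane protein, rose by 0.45 (SE 0.12, adjusted p = 0.0448) and passed in 28 of the 52 fits that left out 1 array (highest adjusted p 0.0806, without old normal-diet ZT20 replicate 3). Without old normal-diet ZT16 replicate 2 it differed by 0.39 (adjusted p = 0.0617).

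**Figure D3:**
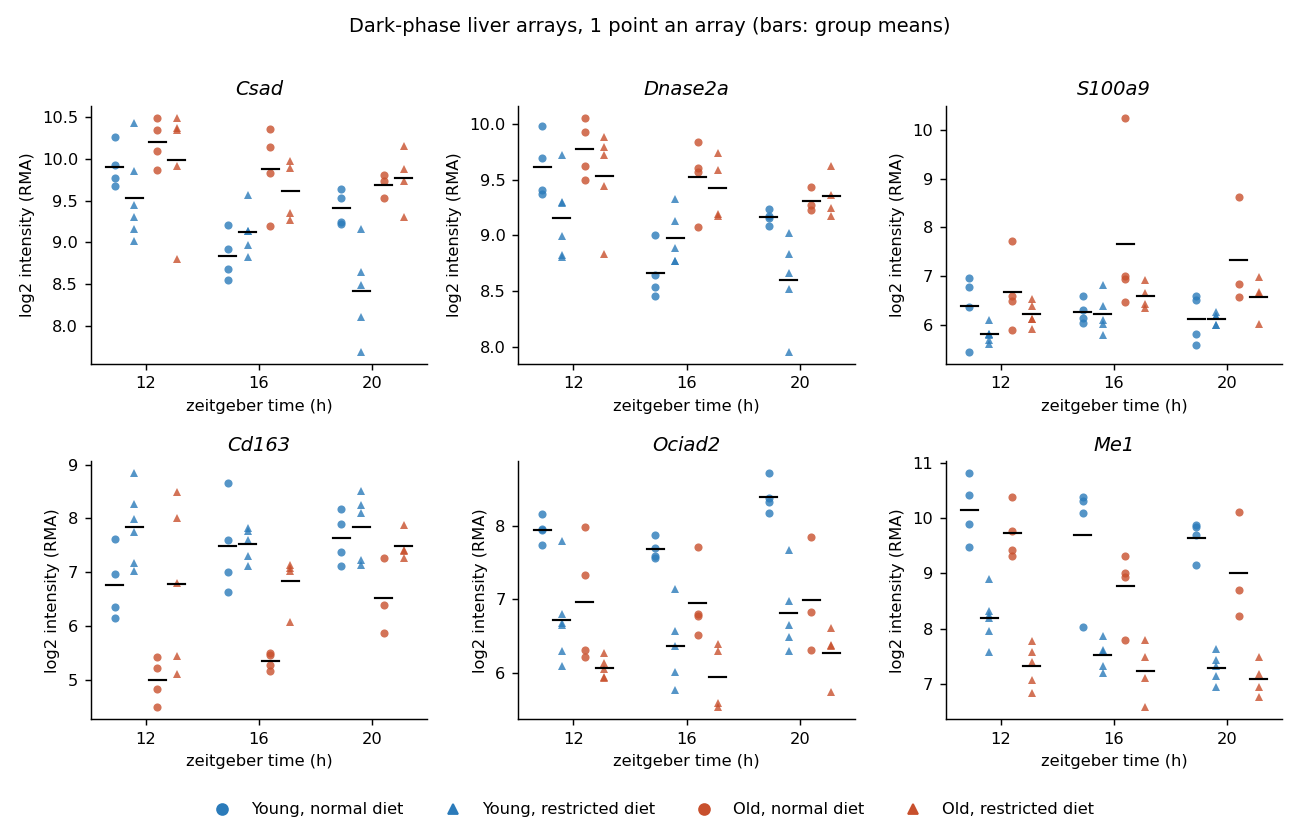
Log2 intensity on each dark-phase array (points) against zeitgeber time in h for Csad, Dnase2a, S100a9, Cd163, Ociad2 and Me1, with bars at the group means; blue is young, red old, circles normal diet and triangles restricted diet. Old arrays sit higher for Csad (23 of 24 above the young median), and Me1 differs more between the diets than between the ages.

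Enzymes that turn sugar into fat had lower means in old mice, with 1 member past the threshold. Me1, cytosolic malic enzyme, supplies NADPH for fatty acid synthesis. Its level ran from 6.57 through 7.78 to 10.39 in old and from 6.95 through 8.22 to 10.82 in young mice, and the diets lay further apart than the ages. On the normal diet the medians were 9.32 in old and 9.88 in young, and under restriction 7.17 and 7.60. Me1 fell by 0.56 (SE 0.14, adjusted p = 0.0344), in 6 of 6 combinations of diet and time. Me1 passed in 46 of the 52 fits that left out 1 array (highest adjusted p 0.0582, without old normal-diet ZT20 replicate 3). Without old normal-diet ZT16 replicate 2 it differed by -0.51 (adjusted p = 0.0534), and without the 3 neutrophil-high arrays by -0.48 (adjusted p = 0.128). Of 22 genes of lipogenesis and its regulators 1 fell, Me1 (4.55%, against 0.882% of all genes), and 21 had a lower mean in old mice. The exception in sign was Pnpla3 (0.14), named after its value was seen. The median was -0.16, with -0.29 on the normal diet and -0.09 under restriction. Fads2, a desaturase of polyunsaturated fatty acids, differed by -0.30 (SE 0.10, adjusted p = 0.103), Mogat1 by -0.45 (SE 0.16, adjusted p = 0.122) and Elovl5 by -0.13 (SE 0.05, adjusted p = 0.128). The core enzymes Fasn (-0.18) and Acaca (-0.16), named after their values were seen, did not pass.

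The promoter of Me1 is shown because it is the lipogenic gene that passed, and the letters around its start match an antioxidant response element, the site known for NRF2. The window is chr9:86695865-86696164 on the minus strand of GRCm38.p6, and capitals mark the match, which begins at position -6 and runs across the start.
Me1: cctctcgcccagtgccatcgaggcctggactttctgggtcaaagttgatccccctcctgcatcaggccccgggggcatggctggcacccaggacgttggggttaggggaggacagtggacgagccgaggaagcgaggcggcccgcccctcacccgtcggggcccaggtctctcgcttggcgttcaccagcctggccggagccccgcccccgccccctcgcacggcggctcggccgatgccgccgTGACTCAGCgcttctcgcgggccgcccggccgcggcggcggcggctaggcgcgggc
The searched letters TGACNNNGC occur in 12.4% of all promoters. Counted by gene, in any of its promoters, they occur in 16.6% of tested genes with an entry and in 14.5% of those lower in old mice. A second Me1 entry, at chr9:86687228-86687527, holds no match to them. Among the NRF2 targets Nqo1, named for the test of age by diet, was not past the threshold for age, with a difference of 0.12.

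Pklr and Khk, enzymes of sugar breakdown, were also among the falls. Of 14 genes of glucose uptake and glycolysis, 2 fell (14.3%, against 0.882% of all genes) and none rose. Pklr, liver pyruvate kinase, the last step of glycolysis, ran from 9.03 through 10.35 to 11.66 in old and from 9.60 through 10.84 to 11.61 in young mice, and 8 of 24 old arrays lay above the young median. It fell by 0.30 (SE 0.08, adjusted p = 0.0457). Khk, ketohexokinase, which starts fructose breakdown, fell by 0.14 (SE 0.04, adjusted p = 0.0387). Pklr passed in 22 and Khk in 41 of the 52 fits that left out 1 array. Both calls were lost without old normal-diet ZT16 replicate 2 (adjusted p = 0.0665 for Pklr and 0.06 for Khk) and without the 3 neutrophil-high arrays (0.132 and 0.105). The median of the list was -0.03, close to that of all genes. Among 19 genes of gluconeogenesis and the fasting response 0 passed by limma, with 1 higher and 3 lower at an unadjusted p under 0.05; Pck1, the gatekeeper of glucose synthesis, had a difference of 0.33 (SE 0.15, adjusted p = 0.214).

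Genes of fat oxidation and respiration mostly had lower means in old mice. Of 23 genes of fatty acid oxidation and targets of the receptor PPAR-alpha 20 had a lower mean in old mice, with a median of -0.15, and 0 passed by limma while 10 were lower at an unadjusted p under 0.05. The median was -0.21 on the normal diet and -0.07 under restriction, and -0.07 without the 3 neutrophil-high arrays. Hadh, a dehydrogenase of mitochondrial beta-oxidation, differed by -0.18 (SE 0.05, adjusted p = 0.0529), Ppara itself by -0.27 (SE 0.10, adjusted p = 0.12) and the thioesterase Acot1 by -0.52 (SE 0.19, adjusted p = 0.131). For Acot1, 9 of 24 old arrays lay below the lowest young array, and without the 3 arrays the difference was -0.32 (adjusted p = 0.409). Of 70 genes of oxidative phosphorylation 63 had a lower mean, by small steps from -0.17 to 0.05 with a median of -0.06, and 27 were lower at an unadjusted p under 0.05. The 1 that passed (1.43%, near the 1.5% of all genes) was Ndufc2, a subunit of complex I. Ndufc2 fell by 0.17 (SE 0.04, adjusted p = 0.035). Its call was lost without old normal-diet ZT16 replicate 2 (adjusted p = 0.0557) and without the 3 neutrophil-high arrays (adjusted p = 0.0624). The median was -0.10 on the normal diet and -0.03 under restriction, and -0.04 without the 3 neutrophil-high arrays. Cytosolic ribosomal protein genes were slightly higher in 46 of 55, with a median of 0.05. Of the 55, 0 passed by limma (12 at an unadjusted p under 0.05, a share near the 18.8% of all genes).

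Cholesterol synthesis genes had higher means in old mice in 17 of 17 tested members, the reverse of the sign in the fatty acid genes. Their differences ran from 0.00 to 0.52, with a median of 0.18. By limma 0 passed (3 at an unadjusted p under 0.05, a share near the 18.8% of all genes). Srebf2, the master regulator of the pathway, ran from 4.57 through 4.99 to 6.02 in old and from 4.46 through 4.86 to 5.69 in young mice and differed by 0.22 (SE 0.07, adjusted p = 0.084). Sqle, squalene epoxidase, had the largest difference at 0.52 (SE 0.24, adjusted p = 0.223), and Mvk, mevalonate kinase, differed by 0.23 (SE 0.09, adjusted p = 0.147). The median was 0.20 on the normal diet and 0.12 under restriction, and it was 0.18 without the 3 neutrophil-high arrays. It was 0.27 in arrays labelled female, 0.03 in those labelled male and 0.06 without ZT20. Members of this list share the arrays, so here too equal signs are not independent observations.

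Genes that the liver expresses in a sex-biased manner gave the lowest median of any list, -0.44. Of 16 tested members 3 fell (18.8%, against 0.882% of all genes). Sult2a8, a sulfotransferase that acts on bile acids and steroids, ran from 7.08 through 8.66 to 10.25 in old and from 8.35 through 9.45 to 10.54 in young mice. In old mice 6 arrays lay below the lowest young array and 3 above the young median. Sult2a8 fell by 0.68 (SE 0.13, adjusted p = 0.00678). Keg1, an acyltransferase-like gene of kidney and liver, fell by 0.46 (SE 0.11, adjusted p = 0.0173). Mup3, a major urinary protein that carries pheromones, fell by 0.42 (SE 0.11, adjusted p = 0.0363), with -0.10 on the normal diet and -0.67 under restriction. These 3 genes have close paralogs, so probe sets may bind relatives. Mup3 passed in 44 of the 52 fits that left out 1 array (highest adjusted p 0.0646). Elovl3, an elongase of very long fatty acids, differed by -0.95 (SE 0.30, adjusted p = 0.0828), the male-biased cytochrome Cyp2d9 by -0.60 (SE 0.19, adjusted p = 0.0889) and the transporter Slco1a1 by -0.74 (SE 0.25, adjusted p = 0.0948). The female-biased Cux2 differed by 0.33 and the growth hormone mediator Stat5b by 0.01, both named after their values were seen. Without the 3 neutrophil-high arrays 1 of the 3 calls held, that of Sult2a8, and the median was -0.43. The labelled sexes were nearly balanced, at 13 female and 11 male old arrays and 14 of each among young arrays, but sex-linked transcripts did not follow those labels, and the part of sex in this list was not tested.

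The remaining large falls spanned signalling, transport and protein turnover. Ociad2, a mitochondrial and endosomal membrane protein, ran from 5.53 through 6.34 to 7.98 in old and from 5.76 through 7.35 to 8.72 in young mice. Most old arrays were low, with 3 of 24 above the young median. Ociad2 fell by 0.76 (SE 0.13, adjusted p = 0.00161) and passed in 52 of 52 fits that left out 1 array. Hectd2, a ubiquitin ligase, fell by 0.84 (SE 0.16, adjusted p = 0.0039). It ran from 4.26 through 5.50 to 7.31 in old and from 4.21 through 6.55 to 8.21 in young mice, and 1 of the 6 combinations, the restricted diet at ZT16, had a positive difference of 0.13. Lepr, the leptin receptor, whose shed form is made by the liver, ran from 3.14 through 4.33 to 5.60 in old and from 3.42 through 4.96 to 6.11 in young mice, and fell by 0.52 (SE 0.13, adjusted p = 0.0258). Lepr was the 1 gene of 18 in the insulin-like growth factor and hepatokine list that passed (5.56%, against 1.5% of all genes). It missed the threshold without the 4 arrays apart in sex-linked transcripts. Nox4, an oxidase that makes hydrogen peroxide, fell by 0.49 (SE 0.11, adjusted p = 0.0131). Hnmt, which inactivates histamine by methylation, fell by 0.45 (SE 0.09, adjusted p = 0.00819), with 3 of 24 old arrays above the young median. Tcim, a small regulator of Wnt and NF-kappa-B signalling, fell by 0.49 (SE 0.11, adjusted p = 0.0157), and Ttc39c by 0.42 (SE 0.10, adjusted p = 0.0248). Tek, the angiopoietin receptor of endothelium, fell by 0.28 (SE 0.07, adjusted p = 0.0248). It was the 1 gene of 18 endothelial markers that passed (5.56%, against 1.5% of all genes). Of the 18, 15 had a lower mean, with a median of -0.08. Alas2, the haem-synthesis enzyme of red cell precursors, fell by 0.49 (SE 0.11, adjusted p = 0.0215), while the globin Hba-a1 differed by -0.07. Nox4, Tcim, Ttc39c and Tek missed the threshold without the 3 neutrophil-high arrays.

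No heat shock gene and 1 clock-associated gene passed in the dark. Hspa1b, the inducible chaperone, had a large but variable difference of -0.87 (SE 0.25, adjusted p = 0.0563). By limma 0 of 14 heat shock genes passed, against 1.5% of all genes (1 at an unadjusted p under 0.05). Of 17 clock genes tested 1 passed, Noct (5.88%). The other 16 had differences from -0.20 (Hlf) to 0.12 (Per3), with adjusted p from 0.171 to 1. The repressors Per1 (-0.03), Per2 (0.02) and Cry1 (-0.07), the activators Arntl (-0.03) and Clock (-0.01) and the nuclear receptor Nr1d2 (-0.20) did not pass. These 6 genes had SEs of 0.07 to 0.17. Passing took a difference of several SEs, since Hspa1b missed the threshold at -0.87 with an SE of 0.25. Differences of several times their SE could thus have gone undetected.

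Noct, nocturnin, a phosphatase of NADP cofactors with strong daily rhythm in liver, had a higher mean in old mice at each time of the dark phase. Its level ran from 9.13 through 10.11 to 10.59 in old and from 9.01 through 9.67 to 10.29 in young arrays. The ranges overlapped, with 20 of 24 old arrays above the young median and 6 above the highest young array. Noct rose by 0.37 (SE 0.07, adjusted p = 0.00651), and the difference was 0.38 at ZT12, 0.35 at ZT16 and 0.36 at ZT20. It was 0.38 on the normal diet and 0.36 under restriction, and Noct passed in 52 of 52 fits that left out 1 array. In the light phase the ages were further apart. At ZT0 the mean was 9.32 (SD 0.55, n = 8) in old and 7.43 (SD 0.72, n = 9) in young mice, and at ZT4 10.06 (SD 0.48, n = 7) against 8.83 (SD 0.68, n = 11). Without the array labelled 23 weeks the latter was 8.79 (SD 0.71, n = 10). By ZT8 the means were 10.37 and 9.89. The mean over the light-phase arrays differed by 1.19 between the ages, and the age difference in the dark was smaller by 0.81 on the log2 scale (-0.81, SE 0.17, adjusted p = 0.0391).

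**Figure D4:**
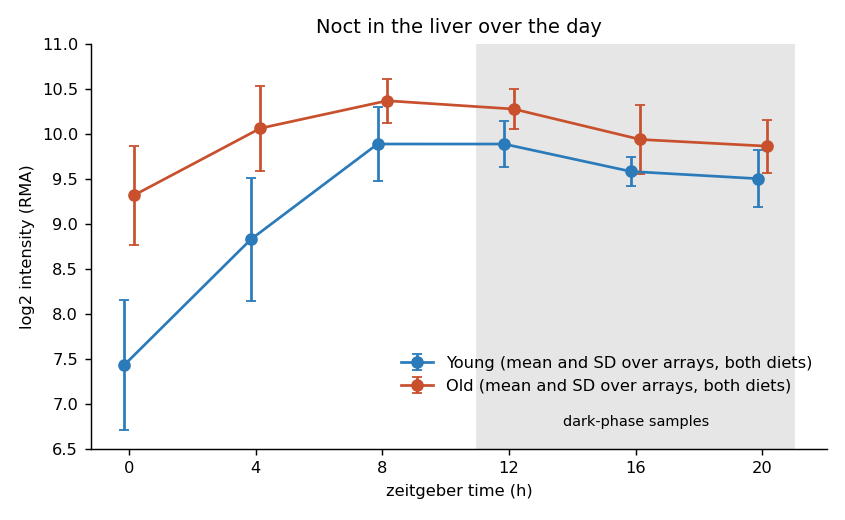
Mean log2 intensity of Noct with SD over arrays (both diets joined) against zeitgeber time in h for old (red) and young (blue) mice; shading marks the dark-phase samples. The old mean is above the young mean at each time, with fitted differences of 0.35 to 0.38 in the shaded samples, and the means lie furthest apart at ZT0, 9.32 against 7.43.

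The promoter of Noct is shown because Noct is the clock-associated gene that passed in the dark, in the light and in the test of the difference between them; it was chosen after its values were seen. Its window, chr3:51224197-51224496 on the plus strand of GRCm38.p6, holds a match to TTATGNAA, letters searched as a loose form of the D-box. The D-box is the site known for the rhythmic factors Dbp, Tef and Hlf. N stands for any base, so a match need not be a D-box, and binding was not tested. Capitals mark the match, which lies on the minus strand at position -94.
Noct: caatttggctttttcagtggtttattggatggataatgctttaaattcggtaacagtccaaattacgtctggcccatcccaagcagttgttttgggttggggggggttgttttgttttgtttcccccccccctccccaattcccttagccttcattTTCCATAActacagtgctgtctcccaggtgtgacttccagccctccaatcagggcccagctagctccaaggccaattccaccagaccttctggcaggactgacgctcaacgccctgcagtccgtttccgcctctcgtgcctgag
The letters TTATGNAA occur in 3.38% of all promoters and, counted by gene in any of its promoters, in 2.59% of the tested genes with an entry. Of the 54 genes higher in old mice with an entry 3.7% hold them, and 3.61% of the 83 lower ones. Tef differed by 0.06 and Hlf by -0.20 with age in the dark, and neither passed.

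Whether the age differences depended on diet or on time within the dark phase was tested next. For the interaction of age with diet 0 of 11675 genes passed by limma, with a smallest adjusted p of 0.0571, and 563 had an unadjusted p under 0.05. Slc22a7, an organic anion transporter among the genes with the smallest p, had an age difference of 0.59 on the normal diet and -0.29 under restriction (difference of the differences -0.89, SE 0.23, adjusted p = 0.818). For Nqo1, a quinone reductase, the values were -0.17 and 0.35 (adjusted p = 0.918). For the interaction of age with time 1 gene passed (0.00857%), Mipol1 (F = 16.5, adjusted p = 0.0394), a coiled-coil protein. Its age difference was -0.20 at ZT12, -0.01 at ZT16 and 0.29 at ZT20, and 764 genes had an unadjusted p under 0.05. Mipol1 passed in 25 of the 52 fits that left out 1 array (highest adjusted p 0.193).

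Age differences in the dark were set against those of the light phase, which share no array with them. The same fit on the 51 light-phase arrays called 783 genes (6.71%), of which 352 were higher and 431 lower in old mice, and 759 without the array labelled 23 weeks. The 34 genes called in both phases were 19.4% of the dark list and 4.34% of the light list, and all 34 had the same sign in both. Of the 175 genes called in the dark, 145 had the same sign in the light, while 63% of all genes did. Across the 11675 genes the differences of the 2 phases correlated at r = 0.496, a description across genes that are not independent. Ociad2 differed by -0.76 in the dark and -0.78 in the light, Clec7a by 0.63 and 0.62, Gpx3 by 0.45 and 0.56. Several of the largest dark-phase differences had a light-phase value near 0 or of opposite sign, with 0.65 and -0.08 for Csad, 0.46 and -0.05 for Dnase2a, 0.55 and -0.04 for Slc22a27, -0.49 and 0.01 for Nox4 and -0.49 and 0.25 for Tcim. None of these 5 passed the test of the difference between phases, with adjusted p of 0.0596, 0.064, 0.297, 0.171 and 0.0529, so they are not shown to be particular to the dark. For Cd163 the light-phase difference was -0.40 and the test across phases gave an adjusted p of 0.238.

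**Figure D5:**
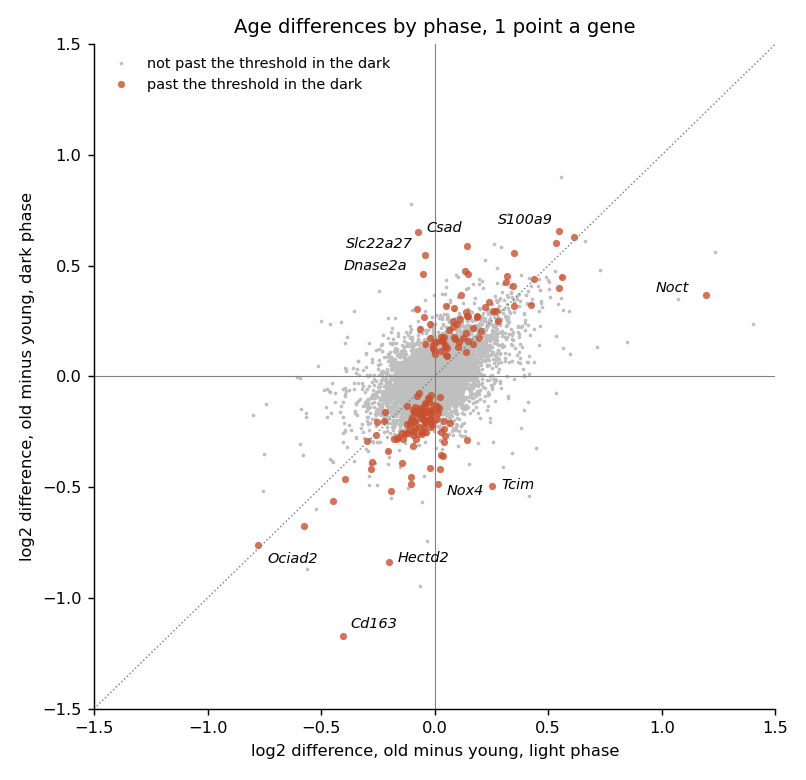
Log2 difference, old minus young, in the dark phase (vertical axis) against that in the light phase (horizontal axis), 1 point a gene for 11675 genes; red points are the 175 genes that passed in the dark and the dotted line marks equal differences. Ociad2 lies near the line and Csad, Dnase2a and Nox4 near the vertical axis.

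In all, 4 genes passed the test of the difference between phases (0.0343%), each with an adjusted p of 0.0391. The same 4 passed without the array labelled 23 weeks. Besides Noct these were Epha1, an ephrin receptor, with an age difference of 0.15 in the dark and -0.18 in the light, and Itm2b, a membrane protein that inhibits amyloid aggregation, with 0.10 and -0.20. The third was Fmnl2, a formin that elongates actin filaments, with -0.17 in the dark and 0.19 in the light. Of these 4, Noct was the one that also passed in the dark alone. In a fit with additive terms for diet and time 0 genes passed, and the count ran from 0 to 32 when single arrays were left out. Noct passed in 72 of those 103 fits (highest adjusted p 0.0685). Before adjustment 1339 genes had a p under 0.05.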

How the data were processed

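Liver RNA was hybridised to Affymetrix arrays, 1 sample an array. The deposited values were log2 intensities that the authors made by RMA, per the submitters' processing notes, and ran from -1.28 to 14.2; version and later steps are not given in the sources used here. Of 21261 probe sets, 15869 named 1 gene, 225 several and 5167 none in the platform annotation, and 15716 of the first matched a gene ID. The probe set with the highest mean stood for each of 15567 genes, the lowest 25% by mean (below 4.139) were left out, and 11675 were tested.

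The age difference was fitted on the 52 dark-phase arrays with diet, time and age as terms (limma 3.58.1 in R 4.3.3, lmFit and eBayes with trend), with Benjamini-Hochberg adjustment over all 11675 genes and a threshold of 0.05. Fits with age by diet, age by time, and all 103 arrays (dark minus light, with a mean for each diet and time) gave the interactions. Named genes are, for rises and for falls, at most 12 of the called genes, taken by size of change, that kept 1 sign in 5 or 6 of 6 combinations of diet and time, without predicted genes and sex chromosomes. The rule adds all clock genes, the 4 members of each list with the smallest p, and the genes past each interaction test or the 3 with the smallest p in each direction; genes outside it are marked in the text. Members and lists were chosen with earlier results of these data known. The fit was tested on simulated data for the age comparison on 11675 genes, where 77.6% of changes of 0.25, and 100% of changes of 0.5 and of 1, were recovered with 12 false calls. For changes of 0.25 and 0.5, recovery was 46.3% and 88.1% for age by diet, 16.4% and 71.6% for age by time, and 62.7% and 98.5% for dark minus light. How many changes of these sizes were missed on the deposited arrays was not tested. How many of the calls on the deposited arrays were false was not tested either. Alternatives covered the filter, normalization, weights, sex, diet and time terms, replicate numbers and left-out arrays. Leaving out the 4 arrays apart in sex-linked transcripts or the 3 neutrophil-high arrays was not planned in advance. Promoters were read from RefSeq tables for GRCm38.p6.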

Additional observations from a re-analysis of the deposited data

Results flagged for a closer look

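Values far from the other arrays of their group were found in 14 of 264 group-by-gene sets tested (5.3%), near the 1 in 20 that chance gives. Old normal-diet ZT16 replicate 2 was the highest of its group for S100a9 (10.26), Plac8 (10.12), Apcs (11.18) and Gpx3 (9.43). Old normal-diet ZT12 replicate 4 was highest for Plac8 (9.02) and Apcs (9.86). Both arrays are among the 3 highest in neutrophil markers. The other high values were Slc22a27 in old restricted mice at ZT12 (8.57) and Lepr at ZT16 in young normal-diet (6.11) and young restricted mice (5.92). The low values were Apcs in young normal-diet mice at ZT12 (8.71), Cd163 and Hectd2 in old restricted mice at ZT16 (6.07 and 4.26), Me1 in young normal-diet mice at ZT16 (8.04) and Hnmt in young restricted mice at ZT16 (6.0).

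The age difference was not the same in the dark and in the light for 4 genes by the test of that difference, dark minus light, at -0.81 for Noct, -0.36 for Fmnl2, 0.34 for Epha1 and 0.3 for Itm2b. The age difference of Mipol1 depended on the time within the dark phase (F = 16.5).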

How the results depend on the processing

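The count of 175 genes that differed with age was within 1.5 times of its value with sex as a term (187), without a filter (123), with a filter at the median (190), and with quantile scaling, median centring, mean probe sets, robust fitting, array weights, without the array labelled 88 weeks, and without the 4 arrays apart in sex-linked transcripts. It was 342 with a term for each combination of diet and time, 722 in the fit on all 103 arrays, 111 without old normal-diet ZT16 replicate 2, 35 without the 3 arrays highest in neutrophil markers, 38 without ZT12, 15 without ZT16, 3 without ZT20, 0 in arrays labelled female (limma, 1051 at an unadjusted p under 0.05), 21 in those labelled male, 1 on the normal diet alone and 61 under restriction alone. Leaving out 1 array gave 93 to 314, and leaving out a replicate number 2 to 165. For the 24 named genes 1590 of 1917 values kept the call, 327 kept the direction and lost it, and 0 reversed. Most of these values came from the 52 fits a gene that left out 1 array, which change the data little. Without those fits and the left-out replicate numbers, calls held from 8 of 21 times (Tmem268) to 18 of 22 (Cd163 and Gpx3). S100a9 passed in 11 of 22. The genes were chosen by size and sign in the same arrays, so a kept direction is largely built in.

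Age by time gave 1 gene, and 0 with sex, on all arrays, without a filter, with a filter at the median, with quantile scaling, array weights, without ZT12 or ZT20, within either sex, on the normal diet and without the 4 sex-linked arrays; restriction alone gave 3 and leaving out the 3 neutrophil-high arrays 2. Single arrays left out gave 0 to 2. Age by diet gave 0, and 0 to 1 with single arrays left out. Dark minus light gave 4 genes. It gave 0 with additive terms, no filter, array weights, either sex or either diet alone, 17 on all arrays, 24 with a filter at the median, 9 with quantile scaling, median centring, without the 88-week array or without the sex-linked arrays, 32 without old normal-diet ZT16 replicate 2, 26 without ZT12, 17 without ZT16, 1 without ZT20 and 7 without the neutrophil-high arrays. Single arrays left out gave 0 to 32. The cause of these shifts was not tested.

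With the replicate number as a block 44 genes passed for age, 0 for age by diet, 0 for age by time and 0 for dark minus light. Same-numbered arrays had a median correlation of deviations of -0.0409 over 24 pairs (6 above 0.1), and 10 of 48 arrays correlated best with their own number, so the numbers were not taken to pair samples. Signal over background was not among the values used.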

Other observations

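Among lists not described above, xenobiotic metabolism had 2 of 36 members that fell (5.56%, against 0.882% of all genes), and a median of -0.07. The 2 were Sult2a8 and the glucuronosyltransferase Ugt2b1. Ugt2b1 fell by 0.20 (SE 0.05, adjusted p = 0.0457 by limma) and passed in 27 of the 52 fits that left out 1 array, missing the threshold without old normal-diet ZT16 replicate 2 (adjusted p = 0.0562). Of 21 autophagy and lysosome genes 1 fell, Atg12 (4.76%, against 0.882% of all genes). No gene passed by limma in the bile acid list (19 tested, 3 at an unadjusted p under 0.05), the unfolded protein response (24 tested, 3), the proteasome (29 tested, 4) or hepatic stellate cell and matrix markers (22 tested, 2). Each of these shares at an unadjusted p lies below the 18.8% of all genes.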
